A study of Mus musculus with 4 samples.

Results

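The Hox genes of clusters A, B, C and D are described here by where Deaf1 ChIP-seq peaks lay along them in C2C12 cells. The members were 38 Hox genes, 10 in cluster A, 10 in cluster B, 9 in cluster C and 9 in cluster D, of 21627 protein-coding genes (autosomes and X) in the RefSeq table of GRCm38.p6, the assembly behind mm10. A peak counted for a member when it overlapped the gene's RefSeq span extended by 1 kb on each side, and all peaks between the outermost members of each cluster were counted as well. C2C12 is an established mouse myoblast line that fuses into contractile myotubes when serum is withdrawn. The cells were labelled myocytes, the series' design text calls them differentiated myoblasts, and no genotype change or agent is given for any sample. Chromatin was crosslinked with formaldehyde, cut with enzymes from a commercial kit and precipitated with an antibody against Deaf1, and a control IgG is also mentioned. Of 4 samples, 2 were Deaf1 ChIP replicates with a peak list each and 2 were inputs that were not analysed here. The replicates are numbered with no word on whether the cultures were separate, so the spread between them may be technical.

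Hox genes encode homeodomain transcription factors that give cells their position along the head-to-tail axis of the embryo. They lie in clusters in which the order of the genes follows the order of the body regions they pattern, and genes at the same place in different clusters, the paralogues, carry the same number. In many adult and cultured cells, parts of the clusters are kept silent by Polycomb proteins and other parts stay active as a memory of where the cells came from, and the clusters are rich in CpG islands. Deaf1 is a transcription factor whose SAND domain binds DNA at TTCG motifs.

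The promoters below are those of members with strong Deaf1 regions over the gene start, beside promoters without a peak. A shared region is a stretch where peaks of both replicates overlap by 1 bp or more, with all the peaks joined to it, and fold is the authors' ratio of the ChIP signal at a peak's summit to the local background estimated by the peak caller. Each sequence is the 250 bases before the gene start in the RefSeq promoter table (GRCm38.p6), read in the direction of the gene, and capitals mark TTCG or, where the motif lies on the other strand, CGAA. Hoxa10 (chr6:52234940-52235189, minus strand), Hoxa6 (chr6:52208673-52208922, minus strand), Hoxd1 (chr2:74762730-74762979, plus strand) and Hoxd9 (chr2:74697513-74697762, plus strand) had the highest shared folds at the promoter window. The shared region covered all the printed bases at each of these 4. Their ranking was among the 22 members in the promoter table. The other 16 members could not be ranked. Among these, Hoxc13 had a shared region of 23.3-fold in replicate 1 and 24.7-fold in replicate 2 over an end of its span. Hoxa9 (chr6:52227371-52227620, minus strand) and Hoxd4 (chr2:74721728-74721977, plus strand) had no peak of either replicate at the promoter window. Both starts lie at the outer end of the gene's span. The nearest summit of a shared region in replicate 1 lay 1365 bp downstream at Hoxa9 and 5611 bp downstream at Hoxd4. RefSeq also gives Hoxa10 an outer start, and the printed one lies inside the span of the gene. The window at the outer start (chr6:52240805-52241104) had a replicate 1 peak but no shared region.

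Hoxa10: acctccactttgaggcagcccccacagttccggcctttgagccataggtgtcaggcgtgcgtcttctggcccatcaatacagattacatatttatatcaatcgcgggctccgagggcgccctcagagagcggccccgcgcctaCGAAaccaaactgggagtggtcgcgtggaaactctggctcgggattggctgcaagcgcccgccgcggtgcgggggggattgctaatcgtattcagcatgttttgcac
Hoxa6: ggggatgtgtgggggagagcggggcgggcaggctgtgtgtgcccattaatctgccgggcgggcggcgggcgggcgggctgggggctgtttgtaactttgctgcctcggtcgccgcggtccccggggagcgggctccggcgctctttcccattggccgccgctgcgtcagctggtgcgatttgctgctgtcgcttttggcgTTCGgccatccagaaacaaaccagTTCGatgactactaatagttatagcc
Hoxd1: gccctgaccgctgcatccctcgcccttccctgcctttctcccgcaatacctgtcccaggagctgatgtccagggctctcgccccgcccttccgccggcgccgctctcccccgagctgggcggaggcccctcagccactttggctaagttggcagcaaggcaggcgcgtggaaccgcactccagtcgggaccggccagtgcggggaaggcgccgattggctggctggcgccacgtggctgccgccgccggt
Hoxd9: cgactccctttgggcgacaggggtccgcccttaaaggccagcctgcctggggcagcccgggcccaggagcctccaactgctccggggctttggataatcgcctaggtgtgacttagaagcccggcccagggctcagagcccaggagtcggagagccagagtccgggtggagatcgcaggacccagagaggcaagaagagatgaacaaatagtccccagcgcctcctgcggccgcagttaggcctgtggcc
Hoxa9: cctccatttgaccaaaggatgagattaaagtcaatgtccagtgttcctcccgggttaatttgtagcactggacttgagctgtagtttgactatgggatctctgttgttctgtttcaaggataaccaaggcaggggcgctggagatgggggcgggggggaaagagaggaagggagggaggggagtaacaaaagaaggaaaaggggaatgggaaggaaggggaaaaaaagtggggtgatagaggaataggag
Hoxd4: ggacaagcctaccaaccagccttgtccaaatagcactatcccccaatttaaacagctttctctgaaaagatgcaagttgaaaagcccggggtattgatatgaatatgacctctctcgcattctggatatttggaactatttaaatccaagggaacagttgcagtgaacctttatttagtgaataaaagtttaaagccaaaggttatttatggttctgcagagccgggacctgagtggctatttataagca

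The 4 promoters under a shared region held 20 CpG dinucleotides (Hoxa10), 24 (Hoxa6), 24 (Hoxd1) and 13 (Hoxd9) in these bases. Those without a peak, Hoxa9 and Hoxd4, held 3 each. TTCG occurred at 1 place, on the other strand, at Hoxa10 and at 2 places at Hoxa6, and in these windows it occurred neither at Hoxd1 and Hoxd9 nor at Hoxa9 and Hoxd4. Among the members in the promoter table, these 6 promoters were picked for having the strongest regions or no peak. Over all member windows the CpG counts with and without a region overlapped, since those with a region went down to 6 at Hoxd8 and those without went up to 14 at Hoxb4.

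The clusters also hold microRNA genes, short RNAs that repress messages matching their seed, several of which are known to target Hox messages. Their mature sequences are shown for the microRNA genes with a peak within 1 kb in at least 1 replicate, with the seed (bases 2 to 8) in capitals, from the RefSeq table of GRCm38.p6.

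mmu-miR-10a-5p: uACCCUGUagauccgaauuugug
mmu-miR-10b-5p: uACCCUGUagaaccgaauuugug
mmu-miR-196b-5p: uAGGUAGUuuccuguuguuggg
mmu-miR-196a-5p: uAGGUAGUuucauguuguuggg
mmu-miR-615-5p: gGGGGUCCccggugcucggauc
mmu-miR-615-3p: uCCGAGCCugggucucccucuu

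The miR-10 sequences of clusters B and D shared the seed ACCCUGU, and the miR-196 sequences of clusters A and C shared AGGUAGU. Both arms of miR-615 are shown because this gene lay under a shared region.

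Deaf1 peaks were dense over all 4 clusters and their folds stood at the median of all shared regions. Between the outermost members of each cluster, replicate 1 had 190 peaks and replicate 2 had 129, which formed 113 shared regions, or 23.3 per 100 kb. Chromosomes 1 to 19 and X held 0.870 shared regions per 100 kb, so the clusters were 26.8 times as dense. The median fold of the 113 regions was 12.5 in replicate 1 and 9.48 in replicate 2, the same as over all 22880 shared regions. There was 1 condition with 2 replicates, so these densities and folds are descriptions, with no test between states.

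Clusters A and C held more shared regions per length than B and D. The 98.5 kb of cluster A (chr6:52162417-52260880) held 49 peaks of replicate 1, 38 of replicate 2 and 32 shared regions, which is 32.5 per 100 kb. Cluster C (chr15:102921131-103036856) followed with 52 peaks, 37 peaks and 34 shared regions over 115.7 kb, or 29.4 per 100 kb. Cluster D (chr2:74668225-74765142) had 39 peaks, 22 peaks and 19 shared regions over 96.9 kb, or 19.6 per 100 kb. Cluster B (chr11:96194316-96368254), the longest at 173.9 kb, had 50 peaks, 32 peaks and 28 shared regions, or 16.1 per 100 kb. The order by density was thus A, C, D and B in shared regions, and in replicate 1 alone the densities were 49.8, 44.9, 40.2 and 28.7 peaks per 100 kb in the same order. In replicate 2 they were 38.6, 32.0, 22.7 and 18.4, again in that order. Counting only peaks of 5-fold or more put cluster C ahead of A, at 27.7 against 26.4 shared regions per 100 kb. Within the merged windows of the members alone the order was C, A, B and D, at 36.1, 32.8, 27.7 and 18.8 per 100 kb. The order of A and C, and that of B and D, thus depended on how regions were counted. Shared regions covered 20.5% of the bases of cluster A, 17.3% of cluster C, 12.9% of cluster D and 8.80% of cluster B, against 0.563% of chromosomes 1 to 19 and X.

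The longest stretch without a shared region lay at one end of cluster B. From Hoxb13, the outermost gene there, 57204 bp ran without a shared region. The longest stretches without one in the other clusters were 14975 bp in cluster D, from the lower-coordinate end of Hoxd3 into Hoxd4, 12686 bp in cluster A inside the span of Hoxa3, and 11063 bp in cluster C from Hoxc5 into Hoxc4. With the longest such stretch of each cluster left out, the densities were 37.3 per 100 kb in A, 24.0 in B, 32.5 in C and 23.2 in D. Outside the clusters the regions thinned out. In the 100 kb on either side, cluster A had 1 shared region below its lower coordinate and 5 above its higher one, cluster B had 2 and 2, cluster C had 1 and 6, and cluster D had 4 and 1. Every flank thus held fewer shared regions than the cluster beside it.

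**Figure D1:**
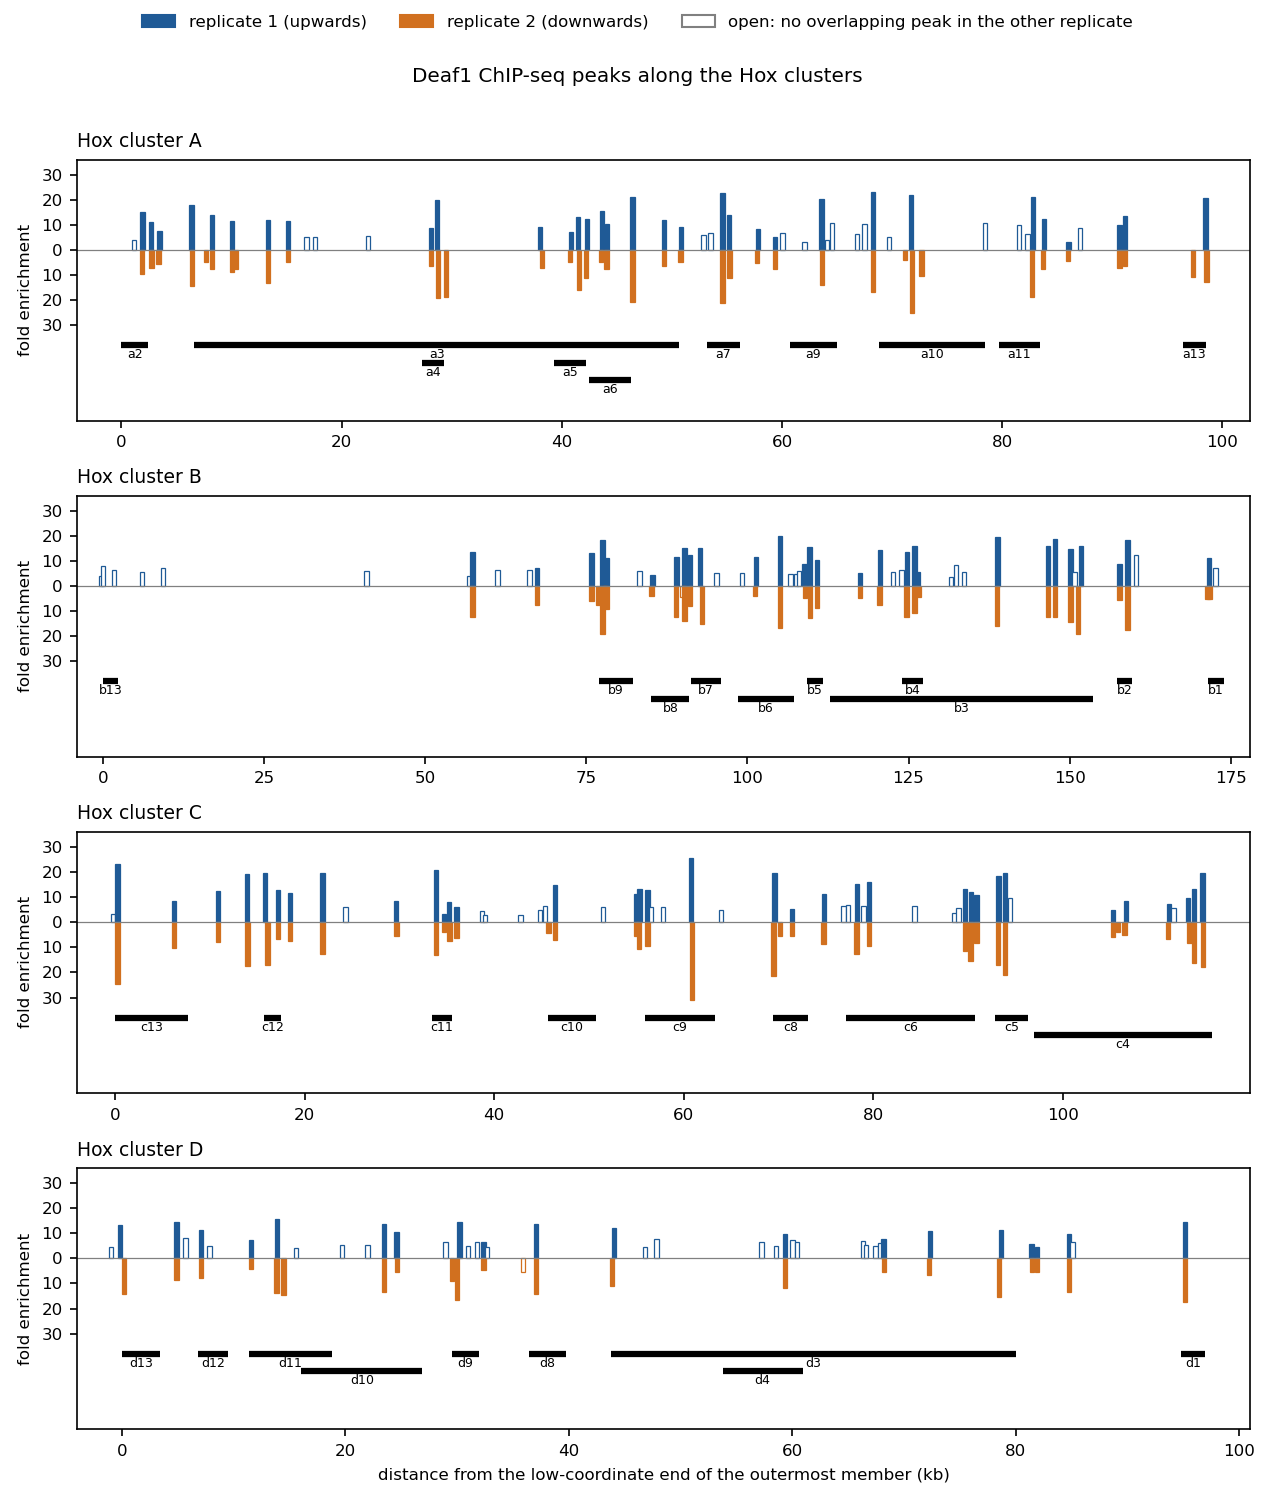
Deaf1 peaks along the 4 Hox clusters: the horizontal axis is the distance in kb from the low-coordinate end of the outermost member, bars upwards give the fold of replicate 1 peaks and bars downwards that of replicate 2, open bars have no overlapping peak in the other replicate, and black lines are the RefSeq spans of the members. Tall filled bars recur along clusters A, C and D and along most of B, while the Hoxb13 end of cluster B holds only open replicate 1 bars over 57204 bp.

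**Figure D2:**
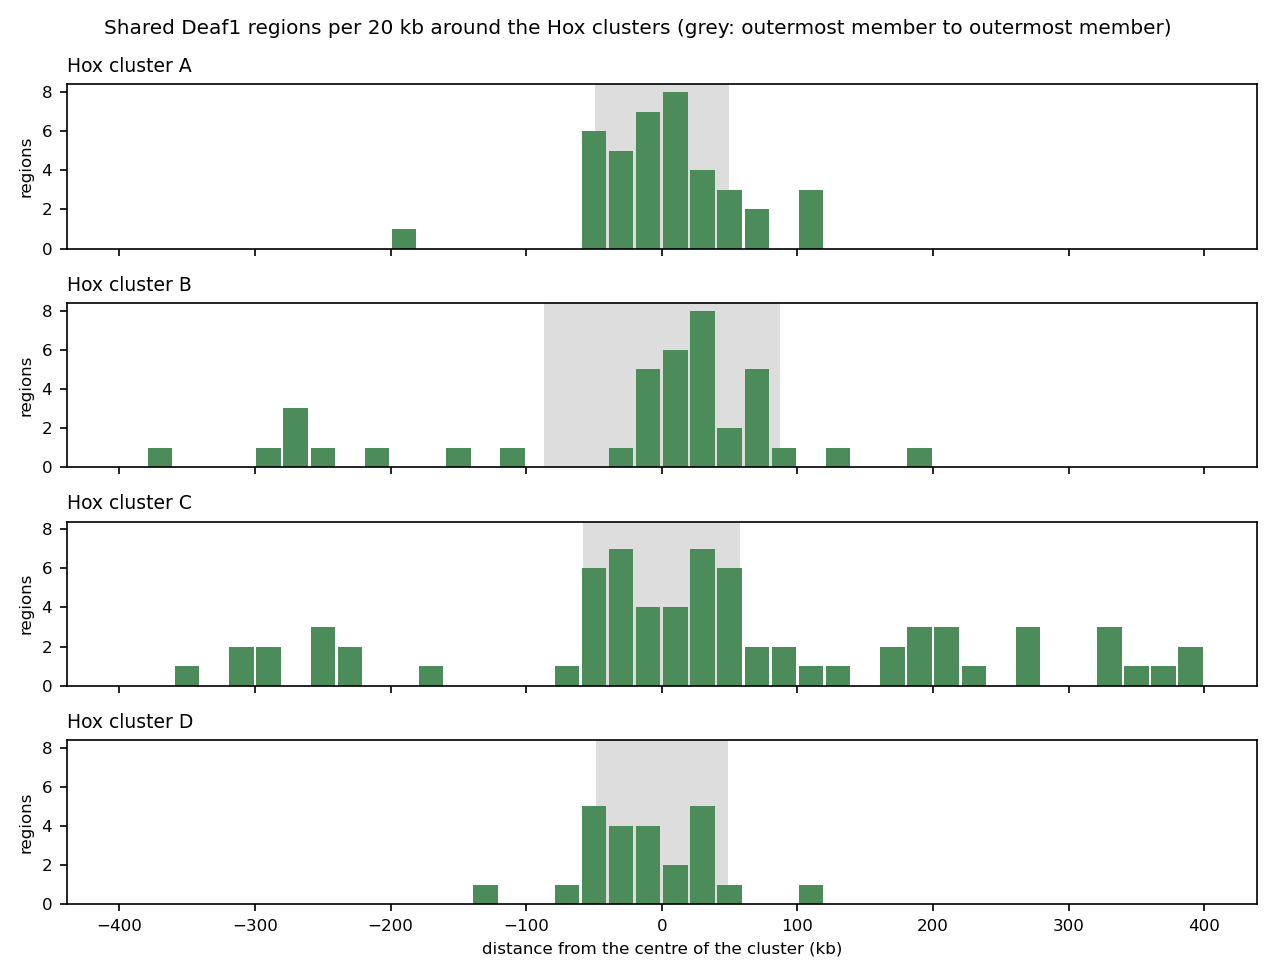
Shared Deaf1 regions per 20 kb around the centre of each Hox cluster, with the stretch between the outermost members in grey. The highest bars stand inside the grey stretch or at its edge in every panel, and the flanks hold between 1 and 6 regions per 100 kb.

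Set against fixed stretches of the genome, the Hox clusters were among the densest but not the densest. Of 26318 stretches of 100 kb, 65.1% held no shared region. The stretch with Hoxa3 to Hoxa13 (chr6:52200001-52300000) held 24, and 6 stretches elsewhere held more, the highest 29. The stretch from Hoxc13 to Hoxc6 (chr15:102900001-103000000) held 23, and 8 stretches held more. The other stretches with a large part of a cluster held 17 in cluster C, 16 and 12 in cluster B, 11 in cluster A, and 11 and 11 in cluster D. Each of these 8 stretches lay above about 99.3% or more of all stretches. A ninth, with 5.7 kb of the Hoxb13 end of cluster B, held 2.

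Replicate support in the clusters was high for the shorter list. A partner in replicate 1 was found for 98.4% of the 129 replicate 2 peaks, against 94.0% over all chromosomes counted. Of the 190 replicate 1 peaks, 59.5% overlapped one of replicate 2, against 35.0%. The replicate 1 peaks without a partner were the weaker ones, with median folds of 6.39 in cluster A, 6.07 in B, 6.03 in C and 5.75 in D, where those with a partner had medians of 12.5, 13.6, 12.8 and 11.5. Only 2 replicate 2 peaks had no partner, 1 in cluster B at 4.17-fold and 1 in cluster D at 5.31-fold. Across the 113 shared regions the folds of the replicates had a Spearman rho of 0.813, against 0.839 over all shared regions. Summits of both replicates lay within 100 bp of each other in 85.0% of the Hox regions and in 83.2% of all.

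The regions were of usual median strength, with smaller shares of very strong and of wide ones than among all shared regions. The lower of the 2 folds was above the genome's median of 9.18 in 56 of the 113 regions (49.6%) and in the genome's top 10% in 3 (2.65%). Median lower folds were 7.59 in cluster A, 11.1 in B, 9.12 in C and 9.58 in D. Cluster A thus had the lowest median of the lower fold, while in replicate 1 alone the median was lowest in cluster D, at 11.5 against 12.5 in A. Regions of 1 kb or wider made up 12.4% here and 16.6% of all shared regions. Of the 113 regions, 81 lay in the window of 1 member, 15 in the windows of 2 or more, and 17 in none.

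All 38 members had a replicate 1 peak, against 70.9% of protein-coding genes. In replicate 2, 37 of 38 had one, against 61.3%, and the same 37 had a shared region, against 60.7%. Among the 13900 protein-coding genes whose span was as long as some member's (1784 to 44009 bp) the share with a shared region was 61%. At least 3 shared regions were found at 16 members (42.1%), against 9.27% of all protein-coding genes and 8.33% of those in the span range. At least 5 were found at 6 members (15.8%), against 2.56% and 1.85%. The spans of Hoxa3, Hoxb3 and Hoxd3 run over neighbouring Hox genes, so members do not count separate regions: the strongest shared region of a window, called its lead here, was also within reach of another member for 9 of 37 members, and there were 35 distinct leads. A lead whose lower fold was 10 or more was found at 32 members (84.2%), against 43.3% of all protein-coding genes.

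The leads of Hox members were as strong as those of other genes that had one. Over the 37 members the median lead fold was 15.96 in replicate 1 and 15.9 in replicate 2, and the median of the lower fold was 14.7. Over all protein-coding genes with a shared region these medians were 16.6, 15.6 and 14.4. Many members thus had more regions per window than most genes, while their best folds lay near the median of genes with a region. The fold was higher in replicate 1 at 23 leads and in replicate 2 at 14. The 95% exact Poisson intervals of the folds, which cover counting error only, overlapped between replicates at 36 of 37 leads. A lead was chosen by the lower of its folds, which favours regions strong in both replicates. The overlap of these intervals therefore does not describe regions that were not leads.

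**Figure D3:**
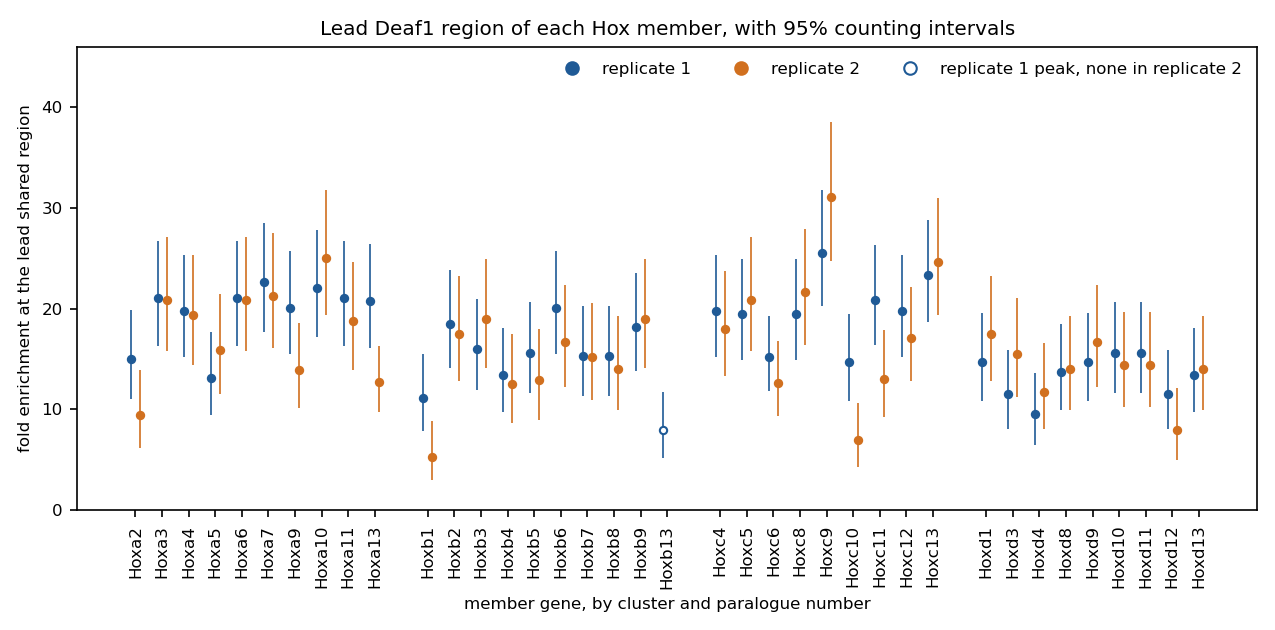
Fold enrichment of each member's lead shared region, in order of cluster and paralogue number, in replicate 1 (blue) and replicate 2 (orange), with 95% exact Poisson intervals from the recovered number of fragments at the summit. Hoxc9 stands highest at 25.5 and 31.1, Hoxb1 and Hoxc10 have the lowest replicate 2 values at 5.31 and 6.93, and Hoxb13 has a replicate 1 peak alone (open).

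In cluster A all 10 members had a shared region, with leads between 9.48 and 25.0 over both replicates. Hoxa2, which patterns the hindbrain, had 3 shared regions and a lead of 15.01-fold in replicate 1 and 9.48-fold in replicate 2. Hoxa3, needed for the thymus and parathyroid, had the most of any member, 16 regions over a span of 44009 bp that runs over Hoxa4, Hoxa5 and Hoxa6. Its lead, 21.1-fold and 20.9-fold in replicates 1 and 2, lay at Hoxa6, and the strongest region in reach of Hoxa3 alone was 17.9-fold and 14.4-fold. The windows of these neighbours are therefore not separate measurements. Hoxa4 had 2 regions and a lead of 19.8-fold and 19.3-fold, also inside the span of Hoxa3. Hoxa5, a gene of lung and skeletal development, had 4 regions and a lead of 13.1-fold and 15.9-fold. Hoxa6 had 5 regions, its lead being the 21.1-fold and 20.9-fold region over the promoter printed above. None of the regions of Hoxa4, Hoxa5 and Hoxa6 was in reach of that gene alone, so these members cannot be told apart from Hoxa3 by these windows.

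The members of cluster A beyond the span of Hoxa3 had 1 or 2 shared regions each. Hoxa7 had 2 regions and a lead of 22.7-fold in replicate 1 and 21.2-fold in replicate 2. Hoxa9, a regulator of blood progenitors, had 1 region of 20.1-fold and 13.9-fold. Hoxa10, which patterns lumbar vertebrae and the uterus, had 2 regions and a lead (chr6:52233483-52235241) of 22.0-fold (95% interval 17.2 to 27.8) in replicate 1 and 25.0-fold (19.4 to 31.8) in replicate 2. This was the highest lower fold in cluster A, and it lay above 91.5% of all shared regions. Hoxa11, known for the forearm and kidney, had 2 regions and a lead of 21.1-fold and 18.7-fold. Hoxa13, known for digits and the urogenital tract, had 1 region of 20.8-fold and 12.7-fold, over a local background in replicate 2 of 3.79 fragments where the lowest was 1.64. Replicate 2 was the lower one at Hoxa7, Hoxa9, Hoxa11 and Hoxa13, and the higher one at Hoxa10.

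In cluster B, 9 of 10 members had a shared region. Hoxb1, a hindbrain gene, had the lowest lead fold of all members in replicate 2: its only region (chr11:96365582-96366255) was 11.2-fold (95% interval 7.84 to 15.5) in replicate 1 and 5.31-fold (3.005 to 8.81) in replicate 2. The intervals overlapped, and the lower value stood above only 17.2% of all shared regions. Hoxb2 had 2 regions and a lead of 18.5-fold and 17.4-fold. Hoxb3, with a span of 40830 bp that covers Hoxb4, had 10 regions and a lead of 15.96-fold and 18.96-fold. Hoxb4, a gene of blood stem cells, had 3 regions, all also within reach of Hoxb3, with a lead of 13.4-fold and 12.5-fold. Of these 4 members Hoxb3 alone had its higher fold in replicate 2.

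The leads from Hoxb5 to Hoxb9 ran from 12.9-fold to 20.1-fold over both replicates. Hoxb5 had 3 regions and a lead of 15.6-fold in replicate 1 and 12.9-fold in replicate 2. Hoxb6 had 2 regions and a lead of 20.1-fold and 16.7-fold. Its other region was 11.5-fold and 3.79-fold. Hoxb7 had 3 regions and a lead of 15.3-fold and 15.2-fold. The windows of neighbours overlapped here as well. Hoxb8 had 4 regions and a lead of 15.3-fold and 14.03-fold, which lay in the window of Hoxb7 too, and its best region in reach of no other member was 11.5-fold and 12.5-fold. Hoxb9 had 2 regions and a lead of 18.2-fold and 18.96-fold, the highest lower fold in cluster B.

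Hoxb13, the gene of prostate and tail development, was the only member without a shared region. Its window held 3 replicate 1 peaks, of 4.15-fold, 7.98-fold and 6.27-fold, and no replicate 2 peak. The strongest of them had a 95% interval of 5.23 to 11.7, below the median fold of 13.6 of the replicate 1 peaks of cluster B that had a partner. It lies apart from the other members of cluster B, at the end of the long stretch without shared regions. With replicate 1 shortened to the length of replicate 2, all 38 members, Hoxb13 included, still had a replicate 1 peak. The part of the shorter list of replicate 2 in the missing replicate 2 peak was not tested.

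All 9 members of cluster C had a shared region, and this cluster held the 2 strongest leads. Hoxc9, which sets the identity of thoracic motor neurons, had 4 regions, and its lead (chr15:102981647-102982548) was 25.5-fold (95% interval 20.3 to 31.8) in replicate 1 and 31.1-fold (24.8 to 38.6) in replicate 2. It stood above 97.5% of all shared regions. Hoxc13, a gene of hair and nail formation at the lower-coordinate end of the cluster, had 2 regions and a lead (chr15:102921115-102922259) of 23.3-fold (18.7 to 28.8) and 24.7-fold (19.3 to 31.03), above 94.5% of all. With Hoxa10 these were the members whose lead reached the genome's top 10% of shared regions. Hoxc10, between them in the cluster, had 1 region (chr15:102966754-102967965) of 14.7-fold (10.9 to 19.5) and 6.93-fold (4.31 to 10.6). It was the only lead at which the intervals of the replicates did not overlap.

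The remaining members of cluster C had leads between 12.7 and 21.6. Hoxc4 had 6 regions and a lead of 19.8-fold in replicate 1 and 17.99-fold in replicate 2. Hoxc5 had 2 regions and a lead of 19.5-fold and 20.9-fold. Hoxc6, a gene of forelimb-level motor neurons, had 5 regions and a lead of 15.2-fold and 12.7-fold. Each of these leads was in reach of a single member. Hoxc8 had 2 regions and a lead of 19.5-fold and 21.6-fold. Hoxc11 had 4 regions and a lead of 20.9-fold and 13.1-fold. Hoxc12, the member with the shortest span at 1784 bp, had 3 regions and a lead of 19.8-fold and 17.1-fold. Replicate 2 was the higher one at Hoxc5, Hoxc8, Hoxc9 and Hoxc13 and the lower one at the other 5.

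Local background was raised more often in cluster C than in the other clusters. It stood above the lowest value of its list, 2.13 fragments in replicate 1 and 1.64 in replicate 2, under 59.6% of the replicate 1 peaks and 43.2% of the replicate 2 peaks of cluster C. The same held under 44.7% and 42.7% of the peaks of chromosome 15 as a whole, and under 21.4% and 24.9% over all chromosomes. In clusters A, B and D the shares were 14.3%, 14% and 17.9% in replicate 1 and 21.1%, 6.25% and 9.09% in replicate 2. The Hoxc9 lead lay over the lowest background in both replicates. The Hoxc13 lead lay over 2.64 and 1.92 fragments. The part of the raised background in the folds of cluster C was not tested.

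In cluster D all 9 members had a shared region, and the leads were the lowest of the 4 clusters, with a median of 13.7-fold in replicate 1 and 14.4-fold in replicate 2. The median leads were 20.9-fold and 19.04-fold in cluster A, 15.6-fold and 15.2-fold in B, and 19.8-fold and 17.99-fold in C. Hoxd1 had 1 region of 14.7-fold and 17.4-fold, over its promoter. Hoxd3, which with its paralogues patterns neck vertebrae, had 5 regions over a span of 36279 bp and a lead of 11.5-fold and 15.6-fold. Hoxd4, inside that span, had 1 region of 9.58-fold and 11.8-fold, also counted for Hoxd3. Its replicate 1 fold was the lowest lead value of replicate 1 among all members. Hoxd8 had 1 region of 13.7-fold and 14.03-fold. Hoxd9 had 2 regions and a lead of 14.7-fold and 16.7-fold.

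The limb and urogenital genes of cluster D closed the range. Hoxd10 had 3 regions and Hoxd11 had 2, and both had the same lead of 15.6-fold in replicate 1 and 14.4-fold in replicate 2. The best region in reach of Hoxd11 alone was 7.34-fold and 4.17-fold, and that of Hoxd10 alone was 13.7-fold and 13.3-fold. Hoxd12 had 1 region of 11.5-fold and 7.96-fold. Hoxd13, known for digits, had 1 region of 13.4-fold and 14.03-fold. Lower folds of the leads in cluster D ran no higher than 14.7, where each of the other clusters had a lead at 18.2 or above.

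By paralogue number the replicates gave no common direction along the clusters. All members had a shared region at 12 of 13 paralogue positions, the exception being position 13 with Hoxb13. The median lower fold of the leads was 14.7 at paralogues 1 to 3 (7 members), 15.2 at 4 to 8 (15 members) and 14.4 at 9 to 13 (15 of 16 members). In the same groups the median lead was 15.01, 15.6 and 19.8 in replicate 1 and 17.4, 15.9 and 14.4 in replicate 2, so the order of the groups was opposite in the replicates. Across the 37 members, paralogue number and lower lead fold had a Spearman rho of 0.106, given as a description since neighbours share regions. Within clusters it was 0.0973 in A, 0.383 in B, 0.0167 in C and -0.227 in D. The sign therefore differed between clusters.

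Paralogues of one number differed in their lower lead folds, most widely at positions 10 and 9. Within clusters these folds ran from 9.48 to 22.0 in A, 5.31 to 18.2 in B, 6.93 to 25.5 in C and 7.96 to 14.7 in D. At position 9 the lower folds ran from 13.9 at Hoxa9 to 25.5 at Hoxc9. At position 10 they ran from 6.93 at Hoxc10 to 22.0 at Hoxa10. At position 1 they were 5.31 at Hoxb1 and 14.7 at Hoxd1. Positions 5, 8 and 11 were closer, from 12.9 to 19.5, from 13.7 to 19.5 and from 13.1 to 18.7. Paralogue position 3 had the most regions, 16 at Hoxa3, 10 at Hoxb3 and 5 at Hoxd3, and these are also the members with the longest spans. Cluster A held the highest lower fold at positions 3, 4, 6, 7, 10 and 11, cluster C at 5, 8, 9, 12 and 13, cluster B at 2 and cluster D at 1. At positions 3 and 6 the value of cluster A came from the same region, at Hoxa6. The best region in reach of Hoxa3 alone was 17.9-fold in replicate 1 and 14.4-fold in replicate 2. By the lower fold this was below the lead of Hoxb3, at 15.96-fold and 18.96-fold.

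**Figure D4:**
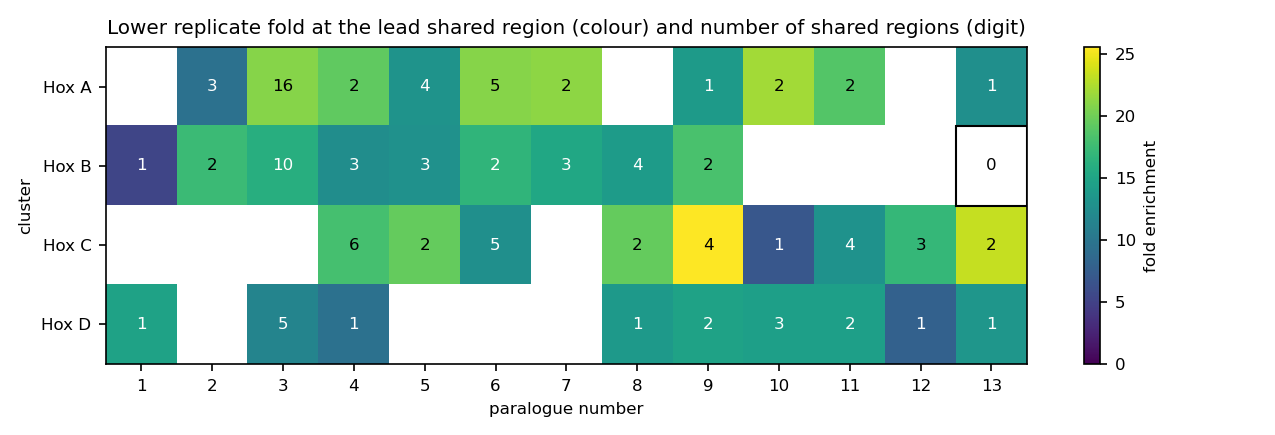
Members by cluster (rows) and paralogue number (columns): the colour gives the lower of the 2 replicate folds at the lead shared region and the digit the number of shared regions in the window, and blank cells hold no member. Hoxc9 is the brightest cell at 25.5, cluster D stays at or below 14.7, and the outlined Hoxb13 cell has 0 shared regions.

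At the gene starts themselves, most members with a promoter in the RefSeq table had a shared region. The table gave 300-base windows (250 before to 50 after the start) for 22 members, with 2 windows each for Hoxa10 and Hoxd11. Clusters A and D had 10 windows each, cluster B had 3 and cluster C had 1. Of clusters B and C only Hoxb1, Hoxb4, Hoxb8 and Hoxc4 had a window. The promoter, CpG and TTCG counts therefore describe mainly clusters A and D. A shared region overlapped 17 of the 24 windows (70.8%), each of a different member, against 47.9% of protein-coding windows. In replicate 1 a peak overlapped 19 windows, against 54.6%, and in replicate 2 15, against 44.1%. Both replicates had a peak of their own in 15 of the 17 windows, and Hoxd8 and Hoxd12 were the ones where only replicate 1 reached into the window. The 5 members without a shared region at a window were Hoxa7, Hoxa9, Hoxb4, Hoxb8 and Hoxd4. Of these, Hoxb4 had a replicate 1 peak there.

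A shared region over the window did not always have its summit there. Of the 17 windows with a shared region, 8 held a replicate 1 summit, 6 held a replicate 2 summit and 5 held both. In replicate 1 the summit of the nearest shared region lay within 500 bp of the start for 14 of 22 members, at a median distance of 295 bp, downstream of the start for 14 and upstream for 8. At Hoxa13 it lay 1 bp from the start, in a region of 20.8-fold and 12.7-fold. At Hoxa10 it lay 791 bp downstream of the printed start, at Hoxd9 675 bp and at Hoxd1 362 bp downstream. The high folds quoted for these promoters were thus measured inside the genes. At Hoxa6 it lay 175 bp upstream of the start, within the sequence printed above, at 21.1-fold and 20.9-fold. The members without a region at the start had their nearest summit 808 bp (Hoxb4), 961 bp (Hoxa7), 1365 bp (Hoxa9), 1430 bp (Hoxb8) and 5611 bp (Hoxd4) downstream.

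Promoter windows with many CpG dinucleotides had a shared region more often, among members as among all protein-coding genes. All 8 member windows with 21 or more CpG had one, against 88.7% of protein-coding windows with 21 to 30 and 96.9% of those with 31 or more. With 11 to 20 CpG, 5 of 8 member windows had one, against 64.5%. With 6 to 10 CpG, 4 of 5 had one, at Hoxa2, Hoxb1, Hoxc4 and Hoxd8, against 17.98%. With 5 or fewer none of 3 had one, against 1.54%. The member counts per class are small, and no test was made of them.

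TTCG occurred on either strand in 16 of the 24 member windows (66.7%), against 49.4% of protein-coding windows. With a shared region 12 of 17 windows held it and without one 4 of 7. Over all protein-coding windows the shares were 62.0% with a shared region and 37.9% without. Hoxa3 and Hoxd12 held the most, 3 matches each, and their regions there were 9.26-fold and 4.93-fold at Hoxa3 and 11.5-fold and 7.96-fold at Hoxd12. Hoxd1, Hoxd9, Hoxd10 and Hoxa13 had a shared region and no match, as did the Hoxd11 window with a region. A match shows letters and not a binding site, and TTCG holds a CpG, so its count moves with the CpG count.

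**Figure D5:**
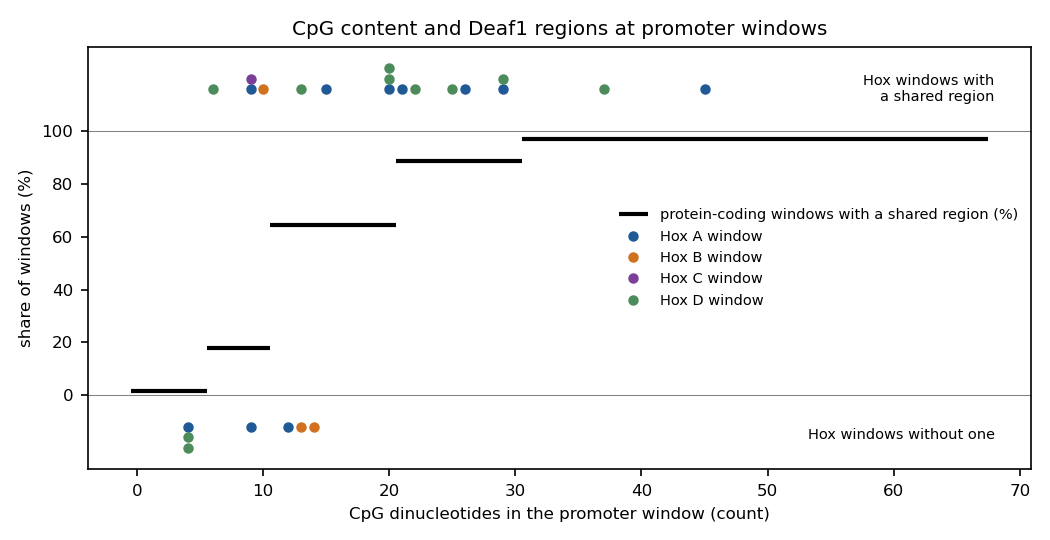
CpG dinucleotides per 300-base promoter window (horizontal axis): black lines give the percentage of protein-coding windows with a shared Deaf1 region in each CpG class, dots above the 100% line are member windows with a shared region and dots below the 0% line member windows without one, coloured by cluster and stacked where they coincide. All 8 member windows with 21 or more CpG are above, and the 7 without a region have between 4 and 14.

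Noncoding genes of the clusters lay in the same dense stretches. Hotair, a long noncoding RNA of cluster C known for its link to Polycomb proteins, had a shared region of 19.8-fold in replicate 1 and 12.5-fold in replicate 2 at 543 bp from its span. Hoxaas3 in cluster A had 9 shared regions, among them that of Hoxa6 at 21.1-fold and 20.9-fold. Hoxb3os and Hoxb5os in cluster B had 5 each, and Haglr in cluster D had 4 including that of Hoxd1. These genes overlap or adjoin Hox members, so a region cannot be given to one or the other. Of the 17 shared regions in no member window, 9 were also out of reach of any noncoding gene in the table. The strongest of those 9 lay between Hoxc13 and Hoxc12 (chr15:102934872-102935509), at 19.2-fold and 17.4-fold.

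Among the 6 microRNA genes, 2 had a shared region within 1 kb. Mir615 (chr15:103014910-103015001), inside the span of Hoxc5, overlapped the lead of that gene at 19.5-fold in replicate 1 and 20.9-fold in replicate 2. Mir196b (chr6:52230081-52230165), between Hoxa9 and Hoxa10, lay 233 bp from a region of 23.0-fold and 16.9-fold. The miR-10 genes, which share their seed, both lacked a replicate 2 peak within 1 kb. Mir10a and Mir10b each had 2 replicate 1 peaks there, Mir196a-2 had 1, and Mir196a-1 had no peak of either replicate. The miR-196 genes thus differed although their seeds are the same.

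Other homeobox genes, taken from a list of families outside the Hox clusters, had similar values. All 63 had a shared region, against 37 of 38 Hox members and 60.7% of protein-coding genes, and 33 (52.4%) had 3 or more. Their median lower lead fold was 14.7, as for Hox members, and the highest were Irx5 at 25.5-fold and 25.9-fold, Dlx1 at 26.2-fold and 25.0-fold, and Irx3 at 28.4-fold and 24.3-fold. Per 100 kb of gene windows, with overlaps merged, the Hox members had 28.9 shared regions, the other homeobox genes 18.3, protein-coding genes in the members' span range 5.05 and all protein-coding genes 1.88. Both homeobox groups were thus denser than protein-coding genes in general.

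Partners, regulators and neighbours of Hox genes had shared regions as well, in spans that are mostly longer. The median number of regions per gene was 2 for Hox members, 2 for the cofactors, 1.5 for Polycomb genes, 1.5 for trithorax and demethylase genes, 1 for CDX and ParaHox genes and 1 for neighbours. Median spans were 3721.5 bp for Hox members, 139224 bp for the cofactors, 24410 bp for Polycomb genes, 26394.5 bp for trithorax and demethylase genes, 6051 bp for CDX and ParaHox genes and 45042.5 bp for neighbours. Per 100 kb of windows Hox members had 28.9, the cofactors had 1.78, Polycomb genes 5.28, trithorax and demethylase genes 9.44, CDX and ParaHox genes 14.6 and neighbours 2.12. All 9 genes of the PBX, MEIS and PKNOX cofactors, which bind DNA together with Hox proteins, had one, at a median lower lead fold of 18.003 and with Pbx3 the highest at 28.7-fold in replicate 1 and 28.8-fold in replicate 2. Of 18 Polycomb genes, whose products silence Hox genes, 17 had one at a median of 21.7. The highest were Ezh2 at 27.1-fold and 29.2-fold, Cbx7 at 25.3-fold and 33.0-fold, and Phc1 at 24.8-fold and 33.8-fold. By the lower fold all 3 stood above every Hox member but Hoxc9, and Ezh2 stood above Hoxc9 too. Of 10 trithorax and H3K27 demethylase genes, whose products keep Hox genes active, 9 had one at a median of 22.3, led by Kmt2d at 29.4-fold and 29.2-fold. Of 6 CDX and ParaHox genes, relatives and upstream regulators of Hox genes, 5 had one, led by Cdx1 at 17.6-fold and 17.8-fold, and Cdx4 had none. All 10 genes next to the clusters had one at a median of 10.8, led by Smug1 at 25.9-fold and 25.8-fold.

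The 2 lists differed in length. Replicate 1 had 65582 peaks on the chromosomes counted and replicate 2 had 26482, with median folds of 6.07 and 8.34 over all peaks. Read depth is not given by peak lists, and the number of fragments at each summit was recovered from the deposited fold and p, with a median of 19 fragments in replicate 1 and 23 in replicate 2. Peak lists hold no expression, so which Hox genes were active in these cells was not measured, and exon, intron and UTR positions were not analysed here.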

How the data were processed

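The members, the gene lists and the window rules were chosen with earlier results of these data known. BWA, MACS2 and genome build mm10 are named, per the submitters' processing notes. Their versions, settings and the control sample are not given in the sources used. The authors deposited a list for each replicate, with peaks called separately. In each list the fold is the authors' ratio of summit signal to local background. The deposited −log10 p and −log10 q belong to single peaks, and the deposited score was 10 times the −log10 p rounded down. They served to rank or filter peaks inside a list.

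Of the 65606 and 26503 peaks listed, those on chromosomes 1 to 19 and X were kept. Summit pileup (fragments covering the summit) and local background were recovered from fold and p by a Poisson model that adds 1 to each, with a largest misfit in −log10 p of 4.07e-05 and 3.87e-05. Tested on simulated data, 100% of 1985 pileups of replicate 1 and 1980 of replicate 2 were recovered. Exact Poisson intervals (95%) of the pileup were carried to the fold and cover counting error only. A background was called raised when it exceeded the lowest by more than 0.003 fragments. Shared regions needed an overlap of 1 bp, and a lead was the region with the highest lower fold in a member's window. Coordinates are 1-based. Gene spans, promoters and microRNAs came from RefSeq tables of GRCm38.p6, matched by symbol. The spans of all 38 members and all 154 list genes were found, promoters of 22 members and all 6 microRNA genes. All members were named. From other lists at most 3 genes with the highest lower fold were named, and Cdx4, named for having no shared region, was chosen after its values were seen. Promoter sequences were those of the 4 highest members with a promoter in the table and 2 of the same clusters with no peak. Python 3.11.15 with numpy 2.4.6, pandas 2.3.3, scipy 1.17.1 and matplotlib 3.10.9 was used. Inputs entered no comparison. Alternatives varied the window, summit rule, fold and q limits, list length, overlap and replicates.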

Additional observations from a re-analysis of the deposited data

How the results depend on the processing

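No paired analysis was possible because the results come from no test and the inputs have no values here. Of 150 recomputed values 141 stayed within the limits set for a change. The limit was wide for counts: a fall from 32 to 24 shared regions in cluster A stayed within it. A wider window could not lower the number of members with a region. Hoxb13 lacked a shared region in every setting that used replicate 2. With a reciprocal overlap of 50% Hoxb1 and Hoxc10 lacked one too. Counts of shared regions rested on both lists: from a single list they ranged over 38 to 49 in cluster A, 32 to 50 in B, 37 to 52 in C and 22 to 39 in D, against 32, 28, 34 and 19. With peaks of 5-fold or more cluster C had 32 and cluster A 26, which turned their order per length. With only as many of the best replicate 1 peaks as replicate 2 has, replicate 1 kept 29 peaks in cluster B, 34 in C and 20 in D. Requiring the summit inside the promoter window left 5 members in place of 17. In the 100 bases around the start TTCG was found at 5 members in place of 15. Requiring a peak of each replicate in the window, an alternative chosen after seeing the data, left 15 members. Read depth is not given by the lists, so what depth limits at Hoxb13 was not tested, and a missing replicate 2 peak there does not show that there was no signal.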
